A study of Mus musculus with 18 samples.

Results

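The methionine cycle of the liver was described with 10 genes: Mat1a and Mat2a, Gnmt, Pemt and Nnmt, Ahcy, Bhmt and Shmt1, and Cbs and Cth. They were the rows of the expression table that carried these symbols, 10 of 19057 lines, and all 10 were among the 10507 genes with enough signal to be tested. The table held liver RNA-seq of 18 ICR mice, an outbred stock, 10 weeks old by their labels and male by the study's methods, with 3 livers in each of 6 groups. The study asked whether gut microbiota from mice dosed with alginate oligosaccharide (AOS), a product of the seaweed polymer alginate, could relieve the effects of a high-fat diet (HFD).

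The Con group was the control, on a regular diet with saline by the study's methods. The AOS group received AOS at 10 mg/kg, with no diet named in its labels. The HFD group received the high-fat diet, with saline by the same methods. The HFD+AOS group received the high-fat diet together with AOS at 10 mg/kg. Con-FMT and A10-FMT mice were also on the high-fat diet and received fecal microbiota transplantation (FMT), from control donors and from donors dosed with AOS at 10 mg/kg respectively. The transplanted material was small intestinal content pooled over the donors of a kind, so the recipients of a group shared their inoculum. Nothing in the labels said which livers were taken on the same day, and the time of day of collection was not given in the sources used here.

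In the methionine cycle, methionine adenosyltransferases turn methionine into S-adenosylmethionine (SAM), the methyl donor of most methylation reactions. Methyltransferases pass the methyl group on and leave S-adenosylhomocysteine (SAH), which is split to homocysteine. Homocysteine is then either methylated back to methionine, with a methyl group from betaine or from folate, or drained into cysteine by transsulfuration. The liver is the main site of this cycle, and hepatocytes also use SAM to make phosphatidylcholine and to dispose of surplus methyl groups on glycine.

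Levels are given in RPKM, read numbers divided by gene length and by the mapped reads of the library, so that they can be set side by side between genes. The libraries were alike in breadth, with 14512 to 14982 genes above 0 and RPKM sums of 692303 to 806937. The table gives no read numbers, and the absolute depth of a library is unknown. The smallest steps of 67 sparsely read genes gave step ratios of 0.99 to 1.04 by library medians and 0.973 to 1.07 by library means. Each value was set against its nearest whole number of steps, which draws the ratios together, so they are a weak check of depth. The summed level of 8 hepatocyte markers was 42640 to 73280 RPKM and all 8 were above 0 in every group. Adipocyte markers summed to 28.45 RPKM in the first A10-FMT liver, 2.04 in the second and at most 0.53 in the other 16, and their part in the results was not tested. Con replicate 3 was near a blend of the other Con livers. Over 148 genes in which those livers differed, 98% of its values lay between them, and a blend of 0.54 of the first and 0.46 of the second missed it by a median of 0.0665 on the log2 scale. AOS replicate 3 was close to such a blend as well, with a median miss of 0.083 over 142 genes, while the livers of the other 4 groups missed by 0.341 to 0.59. Whether these livers are independent samples could not be told from the sources used here. If they are not, the SDs, tests and overlaps of Con and AOS rest on fewer than 3 livers a group. Calls that these livers decide are also given without them.

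The 10 genes covered a wide range of levels in every group. Bhmt was the most abundant of them, at a mean of 1783 RPKM over the 18 livers, and Nnmt the least, with values from 0.37 to 42.5. The order Bhmt, Gnmt, Mat1a, Pemt, Cth, Cbs, Shmt1, Ahcy, Mat2a, Nnmt held in 10 of the 18 livers. Most of the departures were exchanges of neighbours, such as Ahcy with Mat2a. The place of Ahcy is uncertain, because Gm4737, a gene with nearly the same transcript, had its own row at 550.09 to 874 RPKM. Gnmt stood above Bhmt in 2 livers, both of them A10-FMT. Nnmt was last in 17 livers and took place 8 in Con replicate 1. The genes also differed in how much the 3 livers of a group varied. The within-group SD on the log2 scale was 1.06 for Nnmt, 0.453 for Bhmt and 0.296 for Cbs, against 0.139 for Mat2a and 0.151 for Ahcy. A difference of a given size was thus easier to see in Mat2a or Ahcy than in Bhmt or Nnmt.

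**Figure D1:**
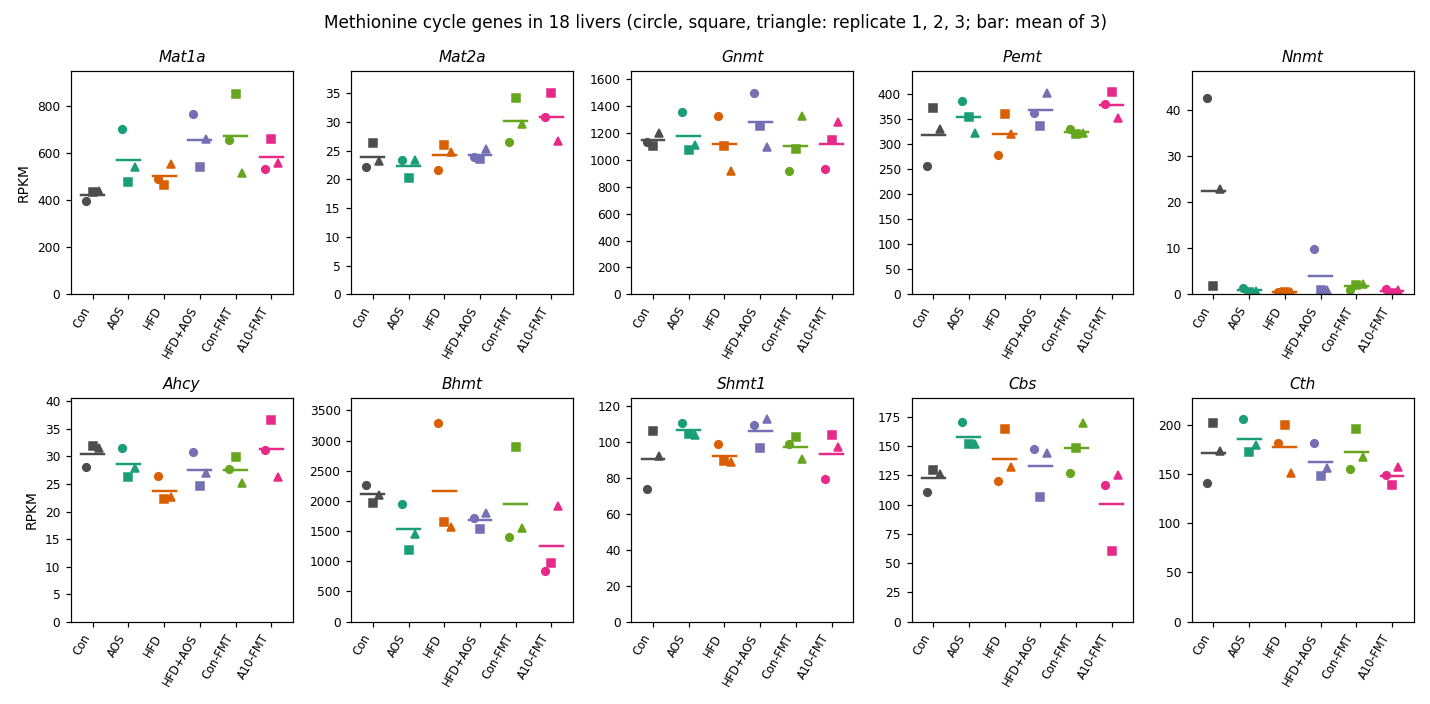
RPKM of the 10 methionine cycle genes in each of the 18 livers, with groups on the horizontal axis, RPKM from 0 on the vertical axis, a point per liver (circle, square and triangle for replicates 1, 2 and 3) and a bar at the mean of 3. Mat2a is highest in the Con-FMT and A10-FMT livers, and Nnmt is high in 2 Con livers (42.5 and 22.92) and 1 HFD+AOS liver (9.82).

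None of the 10 genes passed the test in any of the 6 comparisons made between groups. Values were tested as log2(RPKM + 1) with limma across all genes, and a gene counted as changed at a Benjamini-Hochberg adjusted p under 0.05. For HFD against Con, 0 of 10 were changed where 0.381% of all genes tested were, and 2 of 10 had an unadjusted p under 0.05 where 15.4% of all genes did. For A10-FMT against HFD, 0 of 10 were changed against a background of 6.60%, with 4 of 10 under the unadjusted threshold against 24.5%. For Con-FMT against HFD, the counts were 0 of 10 against 0.00952% and 2 of 10 against 6.63%. For A10-FMT against Con-FMT, they were 0 of 10 against 1.68% and 1 of 10 against 16.4%. For AOS against Con, they were 0 of 10 against 0.133% and 2 of 10 against 15.5%. For HFD+AOS against HFD, where 8.75% of all genes were changed, 0 of 10 members passed either threshold, the unadjusted one being met by 26.2% of all genes. The comparisons with HFD share the HFD livers and those with Con share the Con livers, so their results are not independent.

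The median log2 difference over the 10 genes was 0.01 for HFD against Con, where that of all genes was 0.05, and 0.10 for A10-FMT against HFD, where that of all genes was -0.03. For HFD+AOS against HFD it was 0.20 beside -0.01 over all genes, for Con-FMT against HFD 0.09 beside -0.00, for A10-FMT against Con-FMT -0.13 beside -0.03, and for AOS against Con 0.08 beside 0.07. A test of any difference among the 6 groups, the moderated F of limma, passed for 2 of 10 members, Mat2a and Nnmt, where 14.8% of all genes passed, and 3 of 10 had an unadjusted p under 0.05 where 32.6% of all genes did. In bulk tissue, fewer cells of a type and less RNA per cell cannot be told apart, which holds for every level below.

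**Figure D2:**
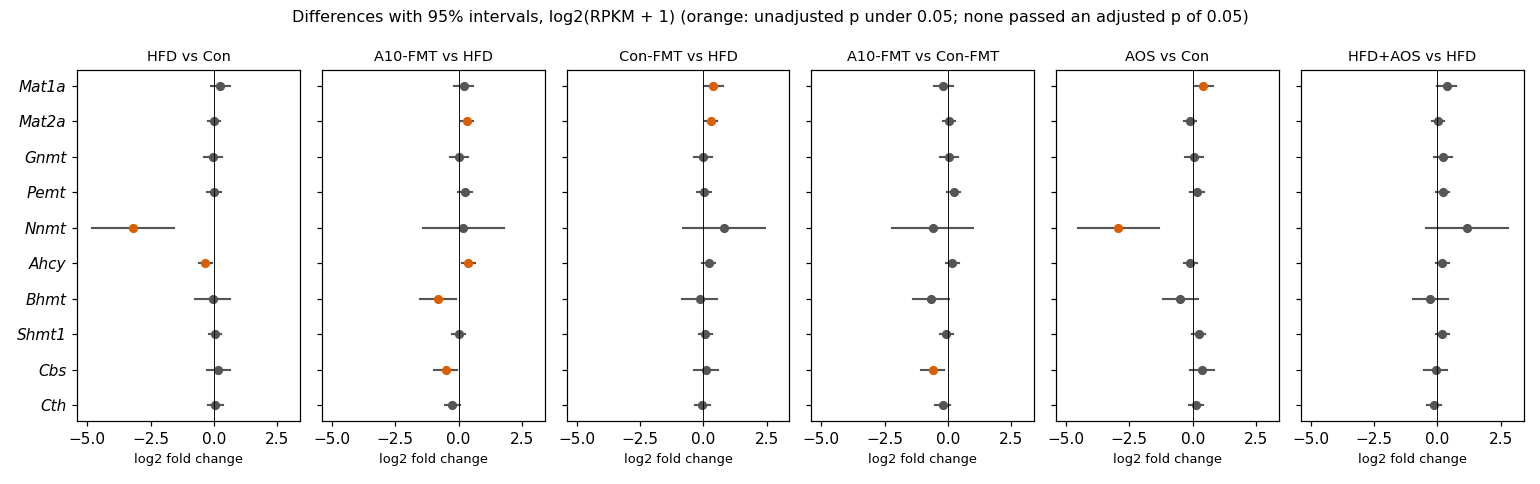
Difference of each methionine cycle gene in each of the 6 comparisons, as log2 fold change of RPKM + 1 on the horizontal axis, with a point at the estimate and a line for its 95% interval from limma. Orange points had an unadjusted p under 0.05, none passed an adjusted p of 0.05, and the widest intervals are those of Nnmt.

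The SAM-making enzymes came first. Mat1a encodes the methionine adenosyltransferase of adult hepatocytes, and lies at chr14:41105035-41124412 on the plus strand of GRCm38. Con livers had 394.74, 434.22 and 439.56 RPKM of Mat1a, and HFD livers had 491.12, 465.39 and 553.27. HFD+AOS livers had 766.42, 541.6 and 658.54, and AOS livers 700.09, 475.72 and 538.06. In the FMT groups, it was 654.19, 849.57 and 512.63 with Con-FMT and 531.83, 657.5 and 555.67 with A10-FMT. The lowest Mat1a value of every other group was above the highest of Con, while the other 5 groups overlapped each other.

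Group means of Mat1a ran from 422.8 ± 24.48 in Con (SD, n = 3) to 672.1 ± 169.2 in Con-FMT. Its difference was 0.25 between HFD and Con on the log2 scale (95% interval -0.13 to 0.62, limma adjusted p = 0.525) and 0.42 between AOS and Con (0.04 to 0.79, adjusted p = 0.269). Against HFD, it was 0.37 for HFD+AOS (-0.00 to 0.74, adjusted p = 0.196) and 0.39 for Con-FMT (0.02 to 0.76, adjusted p = 0.741). For A10-FMT against HFD it was 0.21, with an interval of -0.17 to 0.58. Without AOS replicate 1 the difference of AOS from Con was 0.26 (adjusted p = 0.633), and without Con-FMT replicate 2 that of Con-FMT from HFD was 0.21 (adjusted p = 0.853). Among all 15 pairs of groups, 4 of 150 tests of a member passed, with adjustment only within a pair. By pair, 0 to 1685 of all 10507 genes tested were changed. Mat1a was higher than in Con with HFD+AOS (0.62, 0.24 to 0.99, limma adjusted p = 0.0259) and with Con-FMT (0.64, 0.26 to 1.01, adjusted p = 0.0478). Those pairs differ in more than a single treatment and are not among those 6 comparisons, and 16% and 5.12% of all genes were changed in them. Neither call held without the third Con and AOS livers, at adjusted p = 0.0783 and 0.153. The first was also lost without HFD+AOS replicate 1 or 3 or Con replicate 1 or 3 (adjusted p up to 0.117), and the second without any one Con liver or Con-FMT replicate 1 or 2 (adjusted p up to 0.197). The second passed in 4 of 14 alternatives. It was lost as well with equal library medians, no filter, only those groups fitted or a replicate block.

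Mat2a, at chr6:72432799-72439558 on the minus strand, encodes the form found in most other cell types and in growing liver. It was at 22.24, 26.3 and 23.12 RPKM in Con and 21.69, 26.05 and 24.82 in HFD. AOS livers had 23.38, 20.25 and 23.39, and HFD+AOS livers 23.95, 23.61 and 25.28. With transplantation, values were 26.5, 34.09 and 29.68 in Con-FMT and 30.86, 35.04 and 26.6 in A10-FMT. All 6 FMT livers lay above all 12 of the others, and the FMT groups overlapped each other.

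Mat2a means were 30.09 ± 3.812 in Con-FMT and 30.83 ± 4.22 in A10-FMT, against 24.19 ± 2.248 in HFD (SD, n = 3 each). The difference from HFD was 0.33 for A10-FMT (0.10 to 0.57, limma adjusted p = 0.0765) and 0.30 for Con-FMT (0.07 to 0.54, adjusted p = 0.645), and between the FMT groups it was 0.03 (-0.20 to 0.27). For HFD against Con it was 0.02, with an interval of -0.22 to 0.25. Across the 6 groups Mat2a passed the limma F test (F = 5.53, adjusted p = 0.0347), a call that was lost without the third Con and AOS livers (adjusted p = 0.111). It held in 8 of the 18 fits that left out a single liver, with adjusted p up to 0.0745 in the rest. Among the 15 pairs, it was higher in A10-FMT than in AOS (0.44, 0.21 to 0.68, limma adjusted p = 0.0256), a pair in which 6.46% of all genes were changed. That call was lost without the third Con and AOS livers (adjusted p = 0.0896) and without AOS replicate 2 or 3 or A10-FMT replicate 1 or 2 (adjusted p up to 0.137). It was lost as well with equal library totals or only those groups fitted. With each library scaled to the same median, Mat2a passed for A10-FMT against HFD (0.38, limma adjusted p = 0.022). In addition, 18% of the windows of 35 bases in its transcripts also occurred in transcripts of other genes, most of them in an antisense gene, Particl, and whether reads were counted by strand is not given in the sources used here.

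The ratio of Mat1a to Mat2a showed how far the adult form outweighed the other. Mat1a stood 16.5 to 19 times above Mat2a in Con livers and 17.2 to 20.9 times in A10-FMT livers. In AOS livers the ratio was 23 to 29.9, and in HFD+AOS livers 22.9 to 32. The highest ratios were in the groups given AOS itself, which did not overlap with Con, A10-FMT or HFD (17.9 to 22.6) but did with Con-FMT (17.3 to 24.9). No test was made of the ratio.

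Among the methyltransferases, Gnmt and Pemt are the large consumers of SAM in hepatocytes. Gnmt methylates glycine to sarcosine and so removes surplus SAM; it lies at chr17:46725664-46729168 on the minus strand. Its values were 1132.76, 1100.98 and 1199.13 RPKM in Con, and 1324.06, 1101.59 and 917.73 in HFD. In A10-FMT they were 928.06, 1144.92 and 1281.51, and in Con-FMT 914.21, 1076.95 and 1324.75. The groups overlapped in every comparison, and over all 18 livers the highest value was 1.64 times the lowest.

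On the log2 scale the Gnmt difference was -0.05 for HFD against Con (-0.41 to 0.30), 0.01 for A10-FMT against HFD (-0.35 to 0.37) and 0.02 for A10-FMT against Con-FMT (-0.34 to 0.38). The estimate for HFD+AOS against HFD was 0.21 (-0.15 to 0.56). Limma adjusted p values for Gnmt were between 0.469 and 0.994 in the 6 comparisons.

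Pemt makes phosphatidylcholine from phosphatidylethanolamine in liver, using several SAM molecules for each lipid made, and lies at chr11:59970614-60046489 on the minus strand. It was at 255.42, 371.91 and 329.76 RPKM in Con and 279.09, 360.13 and 319.86 in HFD. Con-FMT livers were close together at 330.08, 320.49 and 322.97, and A10-FMT livers had 380.9, 403.23 and 352.3. All A10-FMT values were above all Con-FMT values, but those of A10-FMT and HFD overlapped.

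For Pemt, A10-FMT differed from Con-FMT by 0.22 (-0.05 to 0.49, limma adjusted p = 0.404) and from HFD by 0.25 (-0.02 to 0.52, adjusted p = 0.246). HFD+AOS, with 362.33, 336.81 and 402.77 RPKM, differed from HFD by 0.20 (-0.07 to 0.47, adjusted p = 0.331). HFD and Con means were 319.7 ± 40.52 and 319 ± 58.98 (SD, n = 3).

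Nnmt, which methylates nicotinamide and thereby takes both a methyl group and an NAD precursor, was the most variable of the 10 genes. It lies at chr9:48591877-48605153 on the minus strand. Con livers had 42.5, 1.76 and 22.92 RPKM, while HFD livers had 0.49, 0.57 and 0.56. AOS livers had 1.44, 0.49 and 0.77, and HFD+AOS livers 9.82, 0.91 and 1.02. With Con-FMT the values were 0.98, 2.08 and 2.18, and with A10-FMT 1.07, 0.37 and 0.91. All Con values were above all HFD, AOS and A10-FMT values, yet the Con group alone spread over 42.5 to 1.76, and outside it a single HFD+AOS liver exceeded 2.18.

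The Nnmt difference between HFD and Con was -3.21 on the log2 scale of RPKM + 1 (-4.82 to -1.59, limma adjusted p = 0.0856), and that between AOS and Con -2.93 (-4.55 to -1.32, adjusted p = 0.113). Between A10-FMT and HFD it was 0.19 (-1.42 to 1.80, adjusted p = 0.907), and between Con-FMT and HFD 0.80 (-0.81 to 2.42), where Con-FMT values were all above those of HFD. The AOS effect differed between the diets by 4.11 (1.83 to 6.39, adjusted p = 0.106). In that test 0 of 10 members passed where 0.504% of all genes did, and Nnmt was the 1 member with an unadjusted p under 0.05, which 14.7% of all genes had. Nnmt passed the limma F test across groups (F = 4.92, adjusted p = 0.047), and among the 15 pairs it was lower in A10-FMT than in Con (-3.02, -4.63 to -1.40, adjusted p = 0.0173), where 12% of all genes were changed.

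These Nnmt results rested on the Con livers. Without Con replicate 2, the liver with 1.76 RPKM, the differences of HFD and AOS from Con were -4.39 and -4.12 and passed (limma adjusted p = 0.000825 and 0.00202). The difference between diets then passed as well, at 5.29 (adjusted p = 0.00327). Without the third Con and AOS livers, the F test no longer passed (F = 2.61, adjusted p = 0.263), nor did A10-FMT against Con (adjusted p = 0.103), which was also lost without Con replicate 1 or 3 or A10-FMT replicate 2 (adjusted p = 0.0946, 0.0793 and 0.0655). Con replicate 3, at 22.92 RPKM, was close to the 23.76 RPKM that the blend of the other Con livers gives. The F test passed in 3 of the 18 fits that left out a single liver, and had adjusted p = 0.185 without Con replicate 1 and 0.188 without Con replicate 3.

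The genes whose pattern over the 18 livers was most like that of Nnmt were Hp and Hpx, the blood proteins haptoglobin and hemopexin, which the liver secretes in the acute-phase response. Pearson's r of the log2 values was 0.923 with Hp and 0.900 with Hpx, and 0.897 and 0.863 over the 16 livers without the third Con and AOS livers. Hp was at 4812.46, 1711.41 and 3653.99 RPKM in the Con livers and at 1583.65, 1637.01 and 1435.75 in the HFD livers. A sum of 6 acute-phase genes (Saa1, Saa2, Saa3, Lcn2, Orm1 and Orm2), chosen after their values were seen, was 18840, 1743 and 10860 RPKM in the Con livers and 559.1 to 1740 in the other 15. The Con livers with high Nnmt were thus those with high acute-phase transcripts, and the part of this in the Nnmt differences was not tested. Outside Con this did not hold for HFD+AOS replicate 1, which had 9.82 RPKM of Nnmt at a sum of 864.1. Con replicate 2 had 1.76 RPKM of Nnmt at the higher sum of 1743. As r was taken across livers that share a library and a group, it is a description of these 18 samples.

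**Figure D3:**
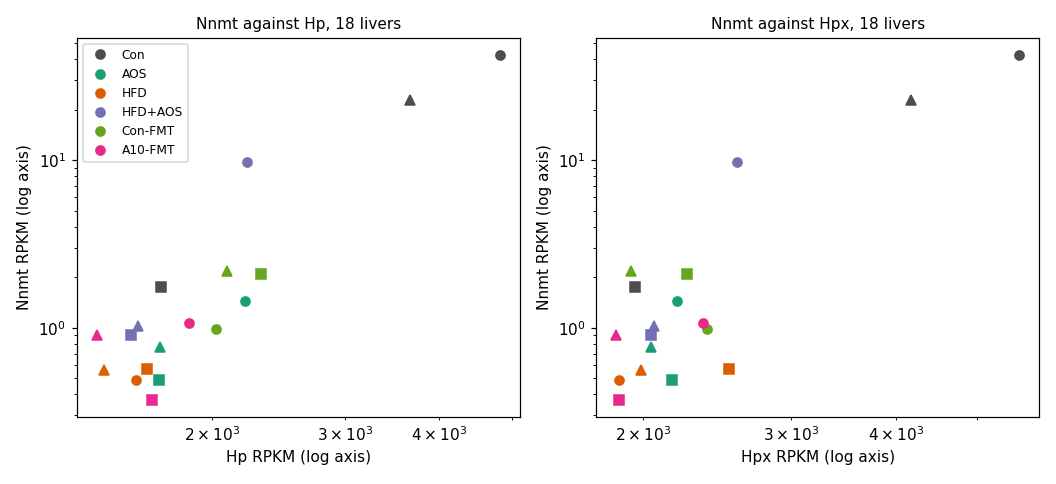
Nnmt RPKM (vertical, log axis) against Hp and Hpx RPKM (horizontal, log axes), a point per liver, coloured by group with circle, square and triangle for replicates 1, 2 and 3. Con replicates 1 and 3, at 42.5 and 22.92 RPKM of Nnmt, stand at the upper right of both panels.

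Ahcy encodes the enzyme that splits SAH, the inhibitor of methyltransferases, into homocysteine and adenosine. The row of that name, for the gene at chr2:155059310-155074497 on the minus strand, had only 22.25 to 36.65 RPKM. A second row, Gm4737, is a gene of 1 exon at chr16:46152985-46155077 with nearly the same transcript, and had 550.09 to 874 RPKM. In the GENCODE M21 transcripts (GRCm38), of 2543 bases for Ahcy and 2093 for Gm4737, 2079 of 2086 aligned bases are the same (99.7%), with 7 differences, 4 of them in the coding part. Of the windows of 35 bases in the Ahcy transcripts, 70.8% also occurred in other genes, 1907 of 2799 in Gm4737. The stretch from base 514 to base 613 of the Ahcy transcript, counted from 1 at the start of the transcript, is shown for both because it holds 2 of the differences, C564T and G579A with the Ahcy base first, in capitals; across the rest of the stretch a read could have come from either gene.
Ahcy: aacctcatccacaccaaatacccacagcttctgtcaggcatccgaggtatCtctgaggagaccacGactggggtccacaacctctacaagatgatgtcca
Gm4737: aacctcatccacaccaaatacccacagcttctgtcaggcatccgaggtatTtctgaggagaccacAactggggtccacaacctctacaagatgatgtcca

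The level of the Ahcy row was 28.02, 31.82 and 31.57 RPKM in Con and 26.54, 22.25 and 22.57 in HFD, without overlap. AOS livers had 31.57, 26.19 and 27.93, and HFD+AOS livers 30.85, 24.66 and 27.06. It was 27.76, 29.83 and 25.24 with Con-FMT and 31.19, 36.65 and 26.31 with A10-FMT. HFD had the lowest mean, although its highest liver was above the lowest of AOS, HFD+AOS, Con-FMT and A10-FMT.

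Ahcy differed by -0.35 between HFD and Con (-0.60 to -0.09, limma adjusted p = 0.187) and by 0.38 between A10-FMT and HFD (0.13 to 0.63, adjusted p = 0.0647). With libraries scaled to the same median, the second of these passed (0.42, adjusted p = 0.0355). Gm4737 gave -0.05 for HFD against Con (-0.36 to 0.27, adjusted p = 0.914) and 0.24 for A10-FMT against HFD (-0.07 to 0.56, adjusted p = 0.329). Its values were 550.09, 686.46 and 639.67 RPKM in Con, 660.79, 559.88 and 594.2 in HFD and 678.24, 874 and 615.19 in A10-FMT, overlapping throughout. The Gm4737 row was 19.6 to 21.6 times the Ahcy row in Con livers and 24.9 to 26.3 times in HFD livers. How the authors' counting split reads between the rows is not stated, so both levels, and the Ahcy differences, are uncertain.

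**Figure D4:**
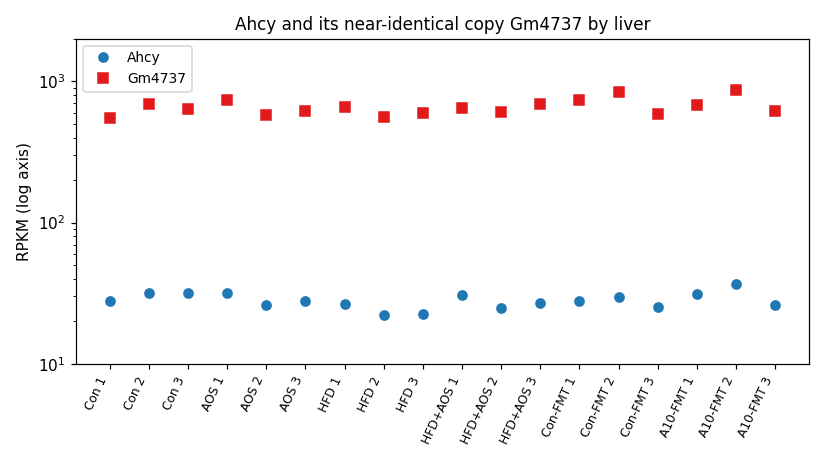
RPKM of the Ahcy row (blue circles) and of its near-identical copy Gm4737 (red squares) in each of the 18 livers, on a log axis. The Gm4737 row lies 19.6 to 28 times above the Ahcy row in all of them.

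Homocysteine is remethylated in liver largely by Bhmt, betaine-homocysteine methyltransferase, at chr13:93616675-93637961 on the minus strand. Its values were 2271.04, 1970.81 and 2101.26 RPKM in Con, and 3287.4, 1646.69 and 1572.27 in HFD. Con-FMT livers had 1407.35, 2889.42 and 1553.46, and A10-FMT livers 835.78, 978.99 and 1924.6. A single liver in each of the HFD, Con-FMT and A10-FMT groups stood well above the other two, and these groups overlapped.

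A10-FMT had the lowest Bhmt mean, 1246 ± 591.6 RPKM against 2169 ± 969.5 in HFD (SD, n = 3). The difference was -0.81 on the log2 scale (-1.51 to -0.11, limma adjusted p = 0.144), and it passed in 1 of 13 alternatives. Without A10-FMT replicate 3 it was -1.17 (adjusted p = 0.028), without A10-FMT replicate 1 it was -0.57 (adjusted p = 0.415) and without HFD replicate 1 it was -0.47 (adjusted p = 0.37). Against Con-FMT, A10-FMT differed by -0.67 (-1.37 to 0.03, adjusted p = 0.327). Bhmt was 1952.71, 1192.05 and 1452.63 RPKM in AOS, all below Con, with a difference of -0.49 (-1.19 to 0.21, adjusted p = 0.495). HFD+AOS livers had 1720.3, 1533.48 and 1799.48, a difference of -0.28 from HFD with an interval of -0.98 to 0.42. Of the 35-base windows in its transcripts, 29.3% occurred in other genes, so part of its level could belong to a related sequence.

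The balance between Bhmt, which makes methionine, and Gnmt, which spends SAM, differed among livers as well. Bhmt was 1.75 to 2 times Gnmt in Con and 1.49 to 2.48 times in HFD. In A10-FMT the ratio was 0.855 to 1.5, with Gnmt above Bhmt in replicates 1 and 2. It was 1.15 to 1.65 in HFD+AOS, 1.12 to 1.44 in AOS and 1.17 to 2.68 in Con-FMT. AOS, HFD+AOS and A10-FMT did not overlap with Con, AOS also did not overlap with HFD, and no test was made of the ratio.

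Shmt1, the cytosolic serine hydroxymethyltransferase that feeds carbon from serine into folate, lies at chr11:60788104-60811718 on the minus strand. It was at 74.03, 106.4 and 92.13 RPKM in Con, 98.98, 89.65 and 89.02 in HFD, and 79.26, 103.74 and 97.42 in A10-FMT. It was one of the steadiest members, with a highest value 1.52 times the lowest. The difference was 0.04 between HFD and Con (-0.22 to 0.30) and 0.01 between A10-FMT and HFD (-0.25 to 0.26), and the larger estimates were 0.24 for AOS against Con (-0.01 to 0.50, limma adjusted p = 0.351) and 0.20 for HFD+AOS against HFD (-0.06 to 0.45, adjusted p = 0.317).

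Transsulfuration starts with Cbs, cystathionine beta-synthase, at chr17:31608894-31637238 on the minus strand. Con livers had 110.89, 129.69 and 126.57 RPKM and HFD livers 119.95, 164.28 and 132.22. It was 127.11, 148.03 and 169.82 in Con-FMT and 116.98, 59.95 and 125.69 in A10-FMT. A10-FMT values were all below those of Con-FMT, and the second A10-FMT liver was the lowest of all 18.

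Cbs differed by -0.61 between A10-FMT and Con-FMT (-1.08 to -0.15, limma adjusted p = 0.176) and by -0.52 between A10-FMT and HFD (-0.98 to -0.05, adjusted p = 0.159). Without that liver the estimates were -0.28 and -0.18, at adjusted p = 0.557 and 0.588. In AOS livers, with 170.29, 151.81 and 151.7 RPKM, Cbs was above every Con liver, and the difference was 0.37 (-0.10 to 0.83, adjusted p = 0.437). HFD+AOS livers had 147.47, 106.79 and 144.47, and differed from HFD by -0.06 (-0.53 to 0.40).

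Cth, the cystathionine gamma-lyase of the next step, lies at chr3:157894248-157925077 on the minus strand and varied least over the livers, with a highest value 1.48 times the lowest. Its values were 140.65, 201.06 and 172.67 RPKM in Con, 180.89, 199.4 and 150.92 in HFD, and 148.62, 139.07 and 156.92 in A10-FMT. The A10-FMT livers were at the low end but overlapped with HFD and Con. Cth differed by -0.25 between A10-FMT and HFD (-0.54 to 0.04, limma adjusted p = 0.28) and by 0.05 between HFD and Con (-0.24 to 0.34).

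The members whose livers did not overlap between groups were counted beside the share of all genes that did not. There were 3 of 10 for HFD against Con (Mat1a above, Ahcy and Nnmt below; 18.5% of all genes), and 1 of 10 for A10-FMT against HFD (Mat2a above; 23.4%). Con-FMT against HFD gave 2 of 10 (Mat2a and Nnmt above; 10.1%), and A10-FMT against Con-FMT 2 of 10 (Pemt above, Cbs below; 18.3%). AOS against Con gave 4 of 10 (Mat1a and Cbs above, Bhmt and Nnmt below; 24.7%). HFD+AOS against HFD gave 1 of 10 (Nnmt above; 27.2%).

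Each member was also set beside the genes whose levels over the 18 livers were most like its own. Those of Mat1a were the receptor kinase gene Mertk (r = 0.883) and Polr3gl (r = 0.845), and those of Mat2a were E130309D02Rik (r = 0.849) and Amd1 (r = 0.788), the S-adenosylmethionine decarboxylase of polyamine synthesis. Gnmt had Sys1 (r = 0.802) and Smim7 (r = 0.758), and Pemt had Ndufb10 (r = 0.928), a subunit of the first complex of the respiratory chain, and Chmp2a (r = 0.926). Ahcy had Plk5 (r = 0.838) and Tmem256 (r = 0.812), and Bhmt had Nt5m (r = 0.839) and Lrrc59 (r = 0.818). The genes most like Shmt1 were Cpped1 (r = 0.857) and Sar1b (r = 0.846), those most like Cbs were Sgk2 (r = 0.890) and Rhou (r = 0.888), and those most like Cth were Kat6b (r = 0.877) and Wrap73 (r = 0.871). Gnmt thus had the lowest r with its closest gene, and Pemt the highest. The 2 genes given were the highest of all tested genes outside the members, over only 18 livers. Such a search favours high r by itself. Promoters of 300 bases from RefSeq (GRCm38.p6) were matched for 7 of the 10 members, and they differed in CpG number. Mat2a had 34 CpGs, a number that 7.73% of 32851 promoters reach, Cbs had 22 and Shmt1 17, whereas the Pemt starts had 2 and 3 and the median promoter 7.

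Beyond the 10 genes, 8 lists of neighbouring enzymes held 98 further genes that could be tested. Among these, 1 was changed for HFD against Con, where 0.381% of all genes were, and 13 for A10-FMT against HFD, where 6.60% were. For Con-FMT against HFD the count was 0 (0.00952% of all genes) and for A10-FMT against Con-FMT 6 (1.68%). It was 0 for AOS against Con (0.133%) and 14 for HFD+AOS against HFD (8.75%). The counts of 0 stood beside 8 and 24 genes with an unadjusted p under 0.05 by limma, which 6.63% and 15.5% of all genes had. These shares of all genes are the background of the counts by list that follow.

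Around Bhmt, 0 of 8 tested genes of remethylation and betaine supply were changed in any of the 6 comparisons by limma. An unadjusted p under 0.05 was reached by 4 of them for HFD against Con (15.4% of all genes) and 3 for AOS against Con (15.5%), and by 0 in the other 4 comparisons. Bhmt2, a relative of Bhmt, had 93.07 to 128.04 RPKM over the 18 livers.

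Chka, choline kinase alpha, opens the route to phosphatidylcholine that runs beside Pemt. It was at 38.93, 48.05 and 45.34 RPKM in HFD, 8.91, 7.73 and 8.67 in HFD+AOS and 9.3, 7.91 and 11.65 in A10-FMT. Con-FMT livers had 27.55, 39.79 and 29.39, overlapping with HFD and AOS, while Con had 44.07 to 52.54 and AOS 38.68 to 44.68. The 6 livers of HFD+AOS and A10-FMT were all far below those of the other groups. Chka fell by 2.10 for A10-FMT against HFD (limma adjusted p = 4.68e-07), by 1.64 against Con-FMT (adjusted p = 1.61e-05) and by 2.25 for HFD+AOS against HFD (adjusted p = 2.81e-07). Of 12 genes of choline uptake and this route, 3 were changed for A10-FMT and 3 for HFD+AOS against HFD, Chka among them. Selenoi, which makes phosphatidylethanolamine, fell by 0.75 with A10-FMT and by 0.65 with HFD+AOS (limma adjusted p = 0.00339 and 0.00826), and Etnk2, an ethanolamine kinase, rose by 0.50 and 0.48 (adjusted p = 0.0428 and 0.0432). The Chka and Selenoi calls against HFD held with any single liver left out. Selenoi for A10-FMT against HFD was lost with only those groups fitted (limma adjusted p = 0.106). The Etnk2 calls were lost without any one of the livers compared (adjusted p up to 0.134 and 0.138). Selenoi also fell by 0.60 for A10-FMT against Con-FMT (adjusted p = 0.0322), which held in 2 of 6 fits that left out a liver (adjusted p up to 0.178 without Con-FMT replicate 2).

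Of 15 tested folate genes, 3 were changed for A10-FMT against HFD, all lower. Gldc and Amt, both parts of the glycine cleavage system that gives carbon to folate, fell by 0.99 (limma adjusted p = 0.00756) and by 0.88 (adjusted p = 0.00322), and Fpgs, which traps folate in the cell, fell by 0.56 (adjusted p = 0.0165). For HFD+AOS against HFD, 2 were changed, where Amt and Gldc fell by 0.56 and by 0.65 (adjusted p = 0.0342 and 0.0488). Gldc was 84.59, 60.72 and 60.14 RPKM in HFD and 27.38, 26.4 and 52.23 in A10-FMT, without overlap. For A10-FMT against Con-FMT it fell by 1.03 (adjusted p = 0.0125), which held in 3 of 6 fits that left out a liver (adjusted p up to 0.0838 without Con-FMT replicate 2). The Amt and Gldc calls for A10-FMT against HFD held with any single liver left out, while Fpgs was lost without A10-FMT replicate 1 (adjusted p = 0.0831). With only those groups fitted, Amt and Gldc were lost (limma adjusted p = 0.0824 and 0.144). For HFD+AOS, Gldc was lost without any of the 6 livers (adjusted p up to 0.139), and Amt held only without HFD replicate 1 (adjusted p up to 0.126 otherwise).

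Of the 13 other methyltransferases of small molecules, those that changed in the 6 comparisons were all higher. Inmt, which methylates indoleamines, was at 157.96, 178.56 and 251.91 RPKM in HFD, 455.44, 451.77 and 515.19 in HFD+AOS and 579.62, 708.72 and 374.15 in A10-FMT. It rose by 1.47 with A10-FMT and by 1.30 with HFD+AOS (limma adjusted p = 0.0198 and 0.0308). Hnmt, the histamine methyltransferase, rose by 0.67 and 0.66 (adjusted p = 0.017 and 0.0158), and Gamt, which makes creatine at the cost of SAM, rose by 0.62 with HFD+AOS (adjusted p = 0.0455). For A10-FMT against Con-FMT, 1 of the 13 passed, Inmt at 1.43 (adjusted p = 0.0492). These calls depended on single livers. Inmt held in 3 of 6 fits that left out a liver for A10-FMT against HFD (adjusted p up to 0.0993), in 2 of 6 against Con-FMT (up to 0.244) and in 0 of 6 for HFD+AOS (up to 0.0909). Hnmt held in 4 of 6 and 3 of 6 (up to 0.0802 without A10-FMT replicate 2 and 0.0752 without HFD replicate 3), and Gamt in 0 of 6 (up to 0.17).

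Around Nnmt, 2 of 18 tested genes of nicotinamide and NAD were changed for A10-FMT against HFD, both higher. Nampt, the enzyme that recycles nicotinamide to NAD and so competes with Nnmt for it, was at 7.18, 9.43 and 9.75 RPKM in HFD, 11.76, 13.16 and 17.59 in HFD+AOS and 19.4, 26.46 and 15.59 in A10-FMT. Both of the latter groups lay above HFD without overlap, and they overlapped each other. It rose by 1.11 with A10-FMT and by 0.62 with HFD+AOS (limma adjusted p = 0.00103 and 0.0306), and by 1.10 for A10-FMT against Con-FMT (adjusted p = 0.00247). Sirt3, the mitochondrial NAD-dependent deacylase, rose by 0.54 with A10-FMT (adjusted p = 0.0375), and Tdo2, which opens tryptophan breakdown, rose by 0.55 with HFD+AOS (adjusted p = 0.0454). The Nampt calls for A10-FMT were lost with only the groups compared (limma adjusted p = 0.0556 against HFD and 0.105 against Con-FMT). They held with any single liver left out. The call for HFD+AOS held in such fits only without HFD+AOS replicate 1 (adjusted p up to 0.109 otherwise). Sirt3 held in 2 of 6 such fits and Tdo2 in 1 of 6 (adjusted p up to 0.146 and 0.169, both without HFD replicate 3).

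Downstream of Cbs and Cth, 3 of 12 genes were lower for A10-FMT against HFD: Ggct of glutathione breakdown by 0.63, Ethe1 of sulphide disposal by 0.77 and Suox, the sulphite oxidase, by 0.51. Their limma adjusted p values were 0.00168, 0.0139 and 0.027. Ggct also fell by 0.67 for A10-FMT against Con-FMT (adjusted p = 0.00246). For HFD+AOS against HFD, 1 of 12 was changed, Csad of taurine synthesis, which fell by 1.24 (adjusted p = 0.0314) with 69.01, 136.67 and 135.97 RPKM in HFD and 24.13, 46.34 and 82.85 in HFD+AOS. Among 7 partners of SAM synthesis and SAH removal, Ahcyl2, a relative of Ahcy, fell by 0.52 for HFD against Con (adjusted p = 0.046) and by 0.43 for HFD+AOS against HFD (adjusted p = 0.0214). The first of these calls was lost without the third Con and AOS livers (adjusted p = 0.304) and held with a single liver left out only where that was Con replicate 2. Mettl16, a methyltransferase that controls Mat2a transcripts, fell by 0.34 for HFD+AOS against HFD (adjusted p = 0.016), where Mat2a itself differed by 0.01 (-0.23 to 0.24). Of 13 genes of polyamines and methionine salvage, 1 was changed, Azin1, a regulator of polyamine synthesis, which rose by 0.52 for HFD+AOS against HFD (adjusted p = 0.0208). In these lists, the Ggct calls were lost with only the groups compared (limma adjusted p = 0.0605 against HFD and 0.105 against Con-FMT). They held with any single liver left out. Ethe1 held in 4 of 6 such fits and Suox in 2 of 6, with adjusted p up to 0.0623 and 0.136 without A10-FMT replicate 2. The Csad difference was -0.80 without HFD+AOS replicate 1. Csad and Ahcyl2 for HFD+AOS held in 2 of 6 (adjusted p up to 0.141 and 0.0731), and Mettl16 and Azin1 in 3 of 6 (up to 0.0635 and 0.0769).

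A list of 7 circadian clock genes was chosen after its values were seen, so its counts describe these genes and test nothing. For A10-FMT against HFD, 6 were changed (all but Nr1d1, limma adjusted p = 0.0598), where 6.60% of all genes were. For HFD+AOS against HFD, 5 were changed (all but Per1 and Per2, limma adjusted p = 0.145 and 0.119), where 8.75% of all genes were. Arntl is a core activator of the clock, and Dbp a clock output. Arntl was at 12.11, 14.64 and 13.21 RPKM in HFD, 1.18, 1.23 and 1.32 in HFD+AOS and 0.79, 0.69 and 2.41 in A10-FMT. Dbp was at 0.56, 0.27 and 0.59 in HFD, 111.84, 88.9 and 97.76 in HFD+AOS and 126.9, 70.84 and 49.17 in A10-FMT, and at 16.54, 3.24 and 22.57 in Con-FMT. The livers low in Arntl and high in Dbp were thus the 6 that were low in Chka. Arntl fell by 2.71 for A10-FMT against HFD and by 2.67 for HFD+AOS against HFD (limma adjusted p = 6.57e-06 and 6.38e-06). The part of the clock genes, or of the time of day at which the livers were taken, in the changes of Chka, Nampt and the other companions was not tested. Summed markers of pericentral hepatocytes, the cells around the central vein, were also higher in those livers. The sums were 5425 to 5997 RPKM in HFD+AOS and 5000 to 6547 in A10-FMT, against 3675 to 3922 in HFD. The Con-FMT sums also lay above those of HFD, at 4135 to 4875, while Con had 2416 to 3273 and AOS 3219 to 3370. Of the 8 markers, 2 passed for A10-FMT, 2 for HFD+AOS and 0 for Con-FMT against HFD. The median log2 difference over the 8 was 0.06 for A10-FMT, 0.16 for HFD+AOS and -0.09 for Con-FMT against HFD. Against Con it was -0.15 for A10-FMT, 0.16 for HFD+AOS and 0.02 for Con-FMT, and for A10-FMT against AOS it was -0.08. A higher sum thus did not always go with a higher median of the markers. The part of these markers was not tested either.

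**Figure D5:**
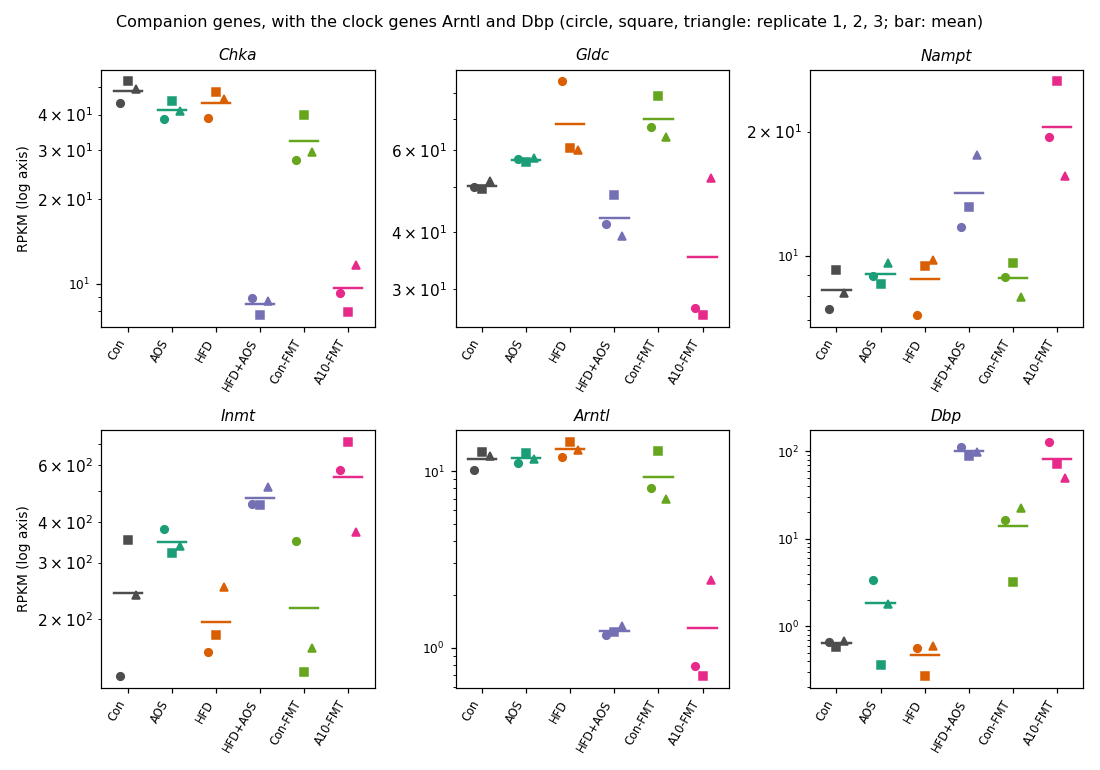
RPKM (log axes) of Chka, Gldc, Nampt and Inmt and of the clock genes Arntl and Dbp in the 18 livers by group, a point per liver and a bar at the mean of 3. Chka and Arntl are low, and Dbp is high, in the HFD+AOS and A10-FMT livers.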

How the data were processed

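Liver RNA was sequenced by the authors on an Illumina instrument, and the deposited table holds RPKM values for 18 livers, rounded to 2 decimals. The unit is that of the study's methods, since the header gives none. The methods name SOAPaligner, with mapping to reference genes, whereas the submitters' processing notes name Bowtie 0.12.2 and the build mm10; the annotation and the use of strand are not given in the sources used here. Groups came from the labels, 3 livers each, and nothing said more of their origin, so p-values measure the spread between these samples.

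The 10 members, the 8 companion lists and the marker lists were chosen with earlier results of these data known, and 2 genes of the companion lists are not reported here. Genes that reached 1 RPKM in 3 or more livers were kept (10507 of 17109 with any value above 0), and log2(RPKM + 1) was fitted with a mean per group over all 18 livers (limma 3.58.1 in R 4.3.3, lmFit, contrasts.fit and eBayes with trend, two-sided). A fold change on this scale understates that of low genes. Adjustment followed Benjamini and Hochberg over all genes within a comparison, with a threshold of 0.05, and intervals are at 95%. The script was tested on simulated data. DEGseq, which the study used, needs read numbers and was not run. Named were all 10 members, up to 3 changed genes of a companion list in each comparison, by smallest p, and the 2 genes most like each member by Pearson's r. The 6 comparisons were set here from the labels and are not a set that the study defines. Replicate numbers were not used to pair livers in the main fit. Correlations of same-numbered livers, with group means taken out, were -0.177 to 0.225. Whether the numbers mark a shared day or cage is not given by the labels, and such correlations cannot settle it.

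Alternatives were equal library medians, equal totals, a pseudocount of 0.1, no filter, only the groups compared, a replicate block, no trend, each liver left out, and leaving out the third Con and AOS livers together. Gm4737 in place of Ahcy, and the fits of the pairs outside the 6 comparisons, were added after seeing the data. Positions, exons and shared windows of 35 bases were read from GENCODE M21, and promoters from RefSeq, with Python 3.11.15, pandas 2.3.3 and Biopython 1.88; figures used matplotlib 3.10.9.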

Additional observations from a re-analysis of the deposited data

Results flagged for a closer look

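The effect of AOS differed between the diets for 1 of 98 tested companion genes, Chka, by limma's test of the difference of the effects. Of all genes tested, 0.504% were changed in that test. The effect of AOS on the high-fat diet minus that without it was -2.03 on the log2 scale (adjusted p = 0.000109). AOS against Con gave -0.23, which did not pass (adjusted p = 0.457), and HFD+AOS against HFD gave -2.25 (adjusted p = 2.81e-07). The difference passed in all 20 alternative fits. The AOS livers carry no diet in their labels. Arntl moved in the same way (-2.70, adjusted p = 0.000698), and its part in the difference was not tested.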

How the results depend on the processing

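Among members, none was changed for Con-FMT against HFD, A10-FMT against Con-FMT or HFD+AOS against HFD in any alternative. For A10-FMT against HFD, 2 members passed with equal library medians (Mat2a and Ahcy), and 0 to 3 with single livers left out. Leaving out single livers gave 0 to 1 for HFD against Con, for AOS against Con and for the difference of the AOS effect between diets, the 1 being Nnmt without Con replicate 2. The test across 6 groups passed for 1 member with equal totals, 0 with no filter, 0 without the third Con and AOS livers, and 0 to 2 with single livers left out. With Gm4737 in place of Ahcy, no count of changed members moved.

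Of the companion genes, HFD against Con gave 2 with equal medians and 0 with equal totals, no filter, only the groups compared, the replicate block or the third livers left out, and 0 to 3 with single livers left out, against 1 as reported. A10-FMT against HFD gave 20 with equal medians, 1 with only the groups compared and 8 to 21 with single livers left out, against 13. A10-FMT against Con-FMT gave 1 with only those groups and 3 to 12 with single livers left out, against 6. AOS against Con likewise gave 1 and 0 to 2, against 0. HFD+AOS against HFD gave 7 with equal totals, 6 with no filter, 9 with only the groups compared, and 3 to 18 with single livers left out, against 14. The replicate block moved no other count past 1.5 times. With it, both Etnk2 calls, Ahcyl2 for HFD against Con and Inmt for A10-FMT against Con-FMT were lost. So were Gamt, Gldc and Tdo2 for HFD+AOS against HFD. The causes were not tested, other than that fits of only the groups compared have fewer livers.

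Chka passed in every alternative of the 3 comparisons in which it was named. Gldc for HFD+AOS against HFD passed in 0 of 13. Over all genes, A10-FMT against HFD gave 693 changed (275 higher, 418 lower), and 609 higher and 475 lower with equal medians, with 271 to 1218 as single livers were left out and 78 with only those groups. HFD against Con gave 40 and 0 to 178, AOS against Con 14 and 0 to 132, A10-FMT against Con-FMT 177 and 51 to 564 (4 with only those groups), and HFD+AOS against HFD 919 and 320 to 1282. Without the third Con and AOS livers, HFD against Con and AOS against Con each gave 0. With 3 livers a group and unknown depth, values near 1 RPKM, such as most of Nnmt, are the least certain.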
